A study of Mus musculus with 6 samples.

Results

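Base excision repair replaces single damaged bases, and its core genes for oxidised DNA were followed in 6 RNA-seq libraries of mouse neural stem and progenitor cells (NSPCs). The 10 members were chosen by name for their role in the pathway. They and the further gene lists below were chosen with earlier results of these data known. The members are glycosylase genes (Ogg1, Mutyh, Neil1, Neil2, Neil3, Nthl1 and Ung), the endonuclease gene Apex1, the scaffold gene Xrcc1 and the polymerase gene Polb. They were matched by NCBI gene identifier among 17254 genes listed in any library. Of the 10, 9 had values and all 9 passed a filter on low values (a mean of at least 1 FPKM, which divides fragments by the length of the transcript and the size of the library). Neil2 was listed in none of the 6 tables and was not analysed here.

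The libraries fall into 3 groups of 2, collected after 48 h: control cells, cells given the pro-oxidant paraquat (PQ), which cycles with oxygen and produces superoxide, and cells given the thiol antioxidant N-acetylcysteine (NAC). The dose of PQ was 5 µM, stated by the labels for PQ library 1 and by the study's methods for RNA-seq, and the methods give 5 mM for NAC. Control library 1 and PQ library 1 are labelled Ink/Ark knockout, strain C57BL/6, and were extracted on NucleoSpin columns and prepared by an Illumina protocol. The other 4 libraries carry neither a genotype nor a strain label, and were extracted with TRIZOL and sequenced on BGISEQ-500. Both NAC libraries belong to this second label set, so NAC libraries with the genotype label were not available to any comparison. The methods describe 1 culture for such work, neonate-derived, immortalized, null for Ink/Arf and mixed in its cell states. By that description untreated cells of this kind are null for the locus as well, which was not checked here. All libraries were grown in N2 medium with EGF and bFGF. The study's reporting summary says that the sequencing was done in 2 replicates, but neither it nor the labels say whether the libraries of a group are separate cultures, and the p-values then measure only the spread between these libraries, which may be technical. Expected counts, which share reads between transcripts and need not be whole, summed to 9849392 and 10040827 in control libraries 1 and 2, to 10388731 and 9680436 in PQ and to 10698241 and 9907726 in NAC.

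Reactive oxygen modifies DNA bases, of which guanine is the most readily oxidised, and the resulting 8-oxoguanine pairs with adenine and causes mutations when it is copied. A DNA glycosylase recognises a damaged base and cuts it from its sugar, an endonuclease opens the strand at the empty site, and a polymerase and a ligase fill and seal the gap on a scaffold. In short-patch repair a single nucleotide is replaced by DNA polymerase beta, whereas long-patch repair borrows the clamp, flap endonuclease, polymerases and ligase of DNA replication. The study's introduction describes the brain as an organ of high oxygen use. Dividing progenitors must clear lesions before the replication fork meets them.

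The cell identity named by the labels was checked with marker genes. Of 7 neural stem and progenitor markers, 6 passed the filter, and Vim, Nes, Sox2 and Fabp7 were among them. Their summed level was 3250.2 and 3327.2 FPKM in control libraries 1 and 2, 3628.3 and 3680.8 in PQ and 2506.6 and 2430.8 in NAC, with Vim the most abundant. Against control, PQ had Nes higher (0.34) and Sox2 lower (-0.35) as log2 fold changes that passed, and NAC had Vim (-0.75), Nes (-0.28) and Sox2 (-0.31) lower. The 3 markers lower in NAC became 1 with the label set as a replicate block, by limma and in the libraries without a genotype label, where PQ against control had 0 called. Their part in the members' values was not tested. Prom1, the stem and progenitor marker that did not pass the filter, was at 0 to 4 counts. Neuron markers (4 of 5 with values) summed to at most 2.8 FPKM in any library, and 4 of 6 microglia and macrophage markers (Aif1, Tmem119, Csf1r and Ptprc) were at 3 counts or fewer in every library. The other 2 were detected at low levels: Cx3cr1 was at 0.51 to 0.93 FPKM, and P2ry12 was at 1.52 and 1.28 FPKM in control, 2.26 and 1.9 in PQ and 3.88 and 2.63 in NAC. P2ry12 was higher in NAC than in control (log2 fold change 1.18, SE 0.26, edgeR adjusted p 0.0033), and its part in the members' values was not tested. In the oligodendrocyte lineage list, Olig2 was the most abundant gene. It was at 320.65 and 327.54 FPKM in control, 311.4 and 267.25 in PQ and 347.76 and 355.13 in NAC, above Sox2 (121.49 to 164.23). Sox10 was at 0 or 1 count. Pdgfra was higher in NAC than in control (log2 fold change 0.40), and Pdgfra (-0.49) and Olig2 (-0.26) were lower in PQ than in NAC. With the label set as a replicate block the first call was lost, as it was in the libraries without a genotype label, and 1 of the other 2 was kept. The part of these changes in the members' values was likewise not tested. Cdkn2a, the gene of the locus that the genotype label names, was listed at 13.65 to 19.14 FPKM in the 6 libraries, at similar levels in both label sets. The exons behind these reads are unknown, so the value does not check the genotype label.

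PQ was compared with control to ask how an oxidant load moves these genes. Neil3 fell most, to less than its level in every control and NAC library, Mutyh, Ung and Xrcc1 fell as well, and Polb rose. Of the 9 members tested, 5 passed an adjusted p of 0.05 in the quasi-likelihood test of edgeR, with p-values adjusted after Benjamini-Hochberg over all 11717 genes tested, where 19.2% of all genes passed. The 4 members that were lower stand beside 9.45% of all genes lower, and the single member that was higher beside 9.76% higher. DESeq2 called 2 lower and 0 higher. The count of 5 became 3 without control library 2, 1 without PQ library 1 and 2 without PQ library 2, and 2 in the libraries without a genotype label. The median log2 fold change was -0.31 over the 9 members and 0 over all genes tested. Because whole cultures were sequenced, fewer cells that express a gene and less RNA per cell cannot be told apart.

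**Figure D1:**
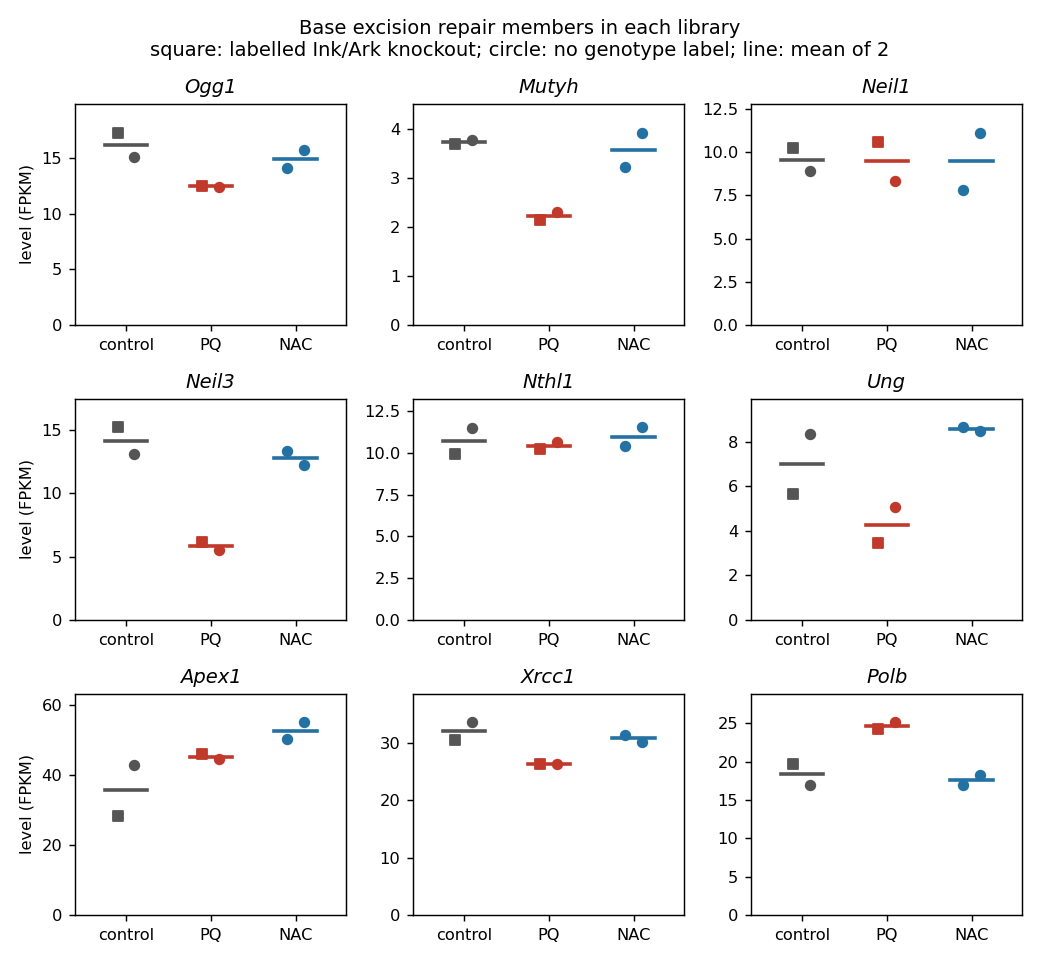
Level of each of the 9 measured members, as FPKM on the vertical axis from 0, in the 2 control, 2 PQ and 2 NAC libraries; each point is 1 library, squares carry the Ink/Ark knockout label and circles no genotype label, and lines are means of 2. Neil3 lies at 5.5 and 6.19 FPKM in PQ and at 12.23 or more in the other 4 libraries, and Polb lies highest in PQ.

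Neil3 encodes a glycosylase that removes oxidised pyrimidines and ring-opened purines, preferentially from single-stranded DNA, and it is known for its expression in proliferating cells and in neural progenitors. Neil3 (NCBI gene 234258) lies on the minus strand of chromosome 8 of mm9 from 54672221 to 54724419. Its level was 15.2 and 13.12 FPKM in control libraries 1 and 2, 6.19 and 5.5 in PQ and 13.38 and 12.23 in NAC. Both PQ libraries lay below all 4 others, whereas the control and NAC libraries overlapped. Against control the log2 fold change was -1.30 (standard error, SE, 0.14, 95% interval -1.60 to -1.00, edgeR adjusted p 7.6e-06), a 2.46-fold lower level. Within the label sets, the PQ library minus its control library was -1.33 on the log2 CPM scale for the pair with the genotype label and -1.24 for the pair without it. The call was kept in all 14 alternative fits, with log2 fold changes from -1.41 to -1.15.

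Mutyh encodes the glycosylase that removes adenine mispaired with 8-oxoguanine, so it acts after a lesion has been copied. Mutyh (NCBI gene 70603, chromosome 4 of mm9 from 116480328 to 116492045) had the lowest level of the members in every group. It was at 3.69 and 3.76 FPKM in control, 2.13 and 2.3 in PQ and 3.21 and 3.92 in NAC. The PQ libraries lay below the other 4, and control and NAC overlapped. PQ over control had a log2 fold change of -0.77 (SE 0.24, edgeR adjusted p 0.031), from 37 expected counts in each PQ library and 60 and 63 in the control libraries. The call was lost in each of the 4 fits that left out a control or a PQ library, where the log2 fold change was -0.78 without control library 1, -0.76 without control library 2, -0.70 without PQ library 1 and -0.83 without PQ library 2. It was also lost by DESeq2 and in the libraries without a genotype label alone, and over all 14 alternatives the adjusted p ran from 0.0142 to 0.246.

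Ung encodes uracil-DNA glycosylase, which removes uracil left by cytosine deamination or by misincorporation of dUTP and has a nuclear form that acts at replication forks. Ung (NCBI gene 22256, chromosome 5 of mm9 from 114580395 to 114589332) was at 5.65 and 8.35 FPKM in control, 3.46 and 5.05 in PQ and 8.64 and 8.46 in NAC. The PQ libraries were the lowest of the 6, but the higher of them lay close to control library 1, and the control libraries were far apart. The value for PQ over control, as a log2 fold change, was -0.76 (SE 0.21, edgeR adjusted p 0.018). Within the label sets the difference in log2 CPM was -0.75 with the genotype label and -0.72 without it. Leaving out control library 2 gave -0.45 and leaving out PQ library 1 gave -0.49, and both ended the call, as did limma on FPKM. Over the 14 alternatives the adjusted p ran from 0.000548 to 0.256. Reads of Ung are divided between 2 transcripts and its counts were fractional in 6 of 6 libraries, so some may be shared with other genes.

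Ogg1 encodes the main glycosylase for 8-oxoguanine opposite cytosine. Ogg1 (NCBI gene 18294, chromosome 6 of mm9 from 113276966 to 113285062) was at 17.29 and 15.09 FPKM in control, 12.47 and 12.44 in PQ and 14.11 and 15.69 in NAC. The PQ libraries were the lowest and nearly equal, and control and NAC overlapped. In PQ over control its log2 fold change, -0.40 (SE 0.14, 95% interval -0.70 to -0.11), missed the threshold by a narrow margin (edgeR adjusted p 0.0501). It passed with no filter on low values and without control library 2, where it was -0.51, and over the 14 alternatives the adjusted p ran from 0.029 to 0.485. On mm9, Ogg1 overlaps Camk1 on the opposite strand over 945 bases, and since the use of strand in counting is not stated, its reads and those of Camk1 cannot be told apart there. Camk1 had 737.7 and 741.6 normalized counts in control and 948.8 and 821 in PQ, the opposite order to Ogg1.

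Neil1 and Nthl1 encode bifunctional glycosylases for oxidised pyrimidines, which also cut the strand. Neil1 (NCBI gene 72774) was at 10.22 and 8.91 FPKM in control, 10.61 and 8.34 in PQ and 7.79 and 11.13 in NAC. Nthl1 (NCBI gene 18207) was at 9.96 and 11.46 FPKM in control, 10.26 and 10.62 in PQ and 10.41 and 11.52 in NAC. For both genes the ranges of the 3 groups overlapped. PQ over control had a log2 fold change of -0.04 for Neil1 (95% interval -0.45 to 0.37) and -0.06 for Nthl1 (95% interval -0.42 to 0.29), and neither passed the test. These intervals still allow changes as large as that of Xrcc1.

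Added over the 6 measured glycosylases, the level was 62.0 and 60.7 FPKM in control libraries 1 and 2, 45.1 and 44.2 in PQ and 57.5 and 63.0 in NAC. Neil3 made up 24.5 and 21.6% of this sum in control, 13.7 and 12.4% in PQ and 23.3 and 19.4% in NAC. Nthl1 made up 16.1 and 18.9% in control, 22.7 and 24.0% in PQ and 18.1 and 18.3% in NAC. Neil1 made up 16.5 and 14.7% in control, 23.5 and 18.8% in PQ and 13.5 and 17.7% in NAC. The PQ libraries thus had the lowest sum and the smallest share of Neil3. Nthl1 and Neil1 each held a larger share of the sum there without a change of their own that passed the test.

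Apex1 encodes the main endonuclease that opens the strand at a site without a base, and the protein also reduces transcription factors. Apex1 (NCBI gene 11792, chromosome 14 of mm9 from 51544643 to 51546814) had the highest mean level of the members in all 3 groups. It was at 28.15 and 42.82 FPKM in control, 45.78 and 44.32 in PQ and 50.05 and 54.9 in NAC. Both control libraries were lowest, but they were far apart, and control library 2 lay close to the PQ libraries. PQ over control had a log2 fold change of 0.32 (SE 0.14, edgeR adjusted p 0.127) and did not pass. With no filter on low values it was 0.31 and passed narrowly (edgeR adjusted p 0.0495). Without control library 2 it was 0.64 and passed, and without control library 1 it was 0.05, and over the 14 alternatives the adjusted p ran from 0.000708 to 0.914. Within the label sets the PQ library minus its control library was 0.65 on the log2 CPM scale with the genotype label and 0.04 without it, so the difference stood in 1 pair. Apex1 overlaps Tmem55b (Pip4p1 in the gene table used here) on the opposite strand over 1070 bases of mm9. Pip4p1 was also lowest in control library 1, at 619.3 normalized counts against 689.6 or more in the other 5.

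Xrcc1 encodes the scaffold that holds the polymerase and the ligase at the gap. Xrcc1 (NCBI gene 22594, chromosome 7 of mm9 from 25332169 to 25358457) was at 30.6 and 33.64 FPKM in control, 26.38 and 26.29 in PQ and 31.36 and 30.3 in NAC. The PQ libraries were the lowest and control and NAC overlapped. PQ over control had a small log2 fold change, -0.31 (SE 0.10, edgeR adjusted p 0.037), and the call was lost without control library 2 (-0.25), without PQ library 1 (-0.30) and without PQ library 2 (-0.32). DESeq2, limma, the label set as a replicate block (-0.31, edgeR adjusted p 0.0548) and the libraries without a genotype label also ended it. Over the 14 alternatives the adjusted p ran from 0.0327 to 0.206 and the log2 fold change from -0.37 to -0.25.

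Polb encodes DNA polymerase beta, which fills the gap of a single nucleotide and removes the remaining sugar phosphate. Polb (NCBI gene 18970, minus strand of chromosome 8 of mm9 from 23738591 to 23763909) was at 19.72 and 16.96 FPKM in control, 24.19 and 25.1 in PQ and 16.93 and 18.28 in NAC. It was the only member with both PQ libraries above all 4 other libraries. PQ over control had a log2 fold change of 0.40 (SE 0.14, 95% interval 0.12 to 0.68, edgeR adjusted p 0.045), close to the threshold. The call was lost without control library 2 (0.29), PQ library 1 (0.44), PQ library 2 (0.36), and without NAC library 1 or 2 (0.40 in both), and with the label set as a replicate block (0.40, edgeR adjusted p 0.0583). It passed in 5 of the 14 alternatives, over which the adjusted p ran from 0.0286 to 0.228. Polb overlaps the noncoding gene Gm17362 on the opposite strand over 1426 bases of mm9, so its reads are uncertain there.

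**Figure D2:**
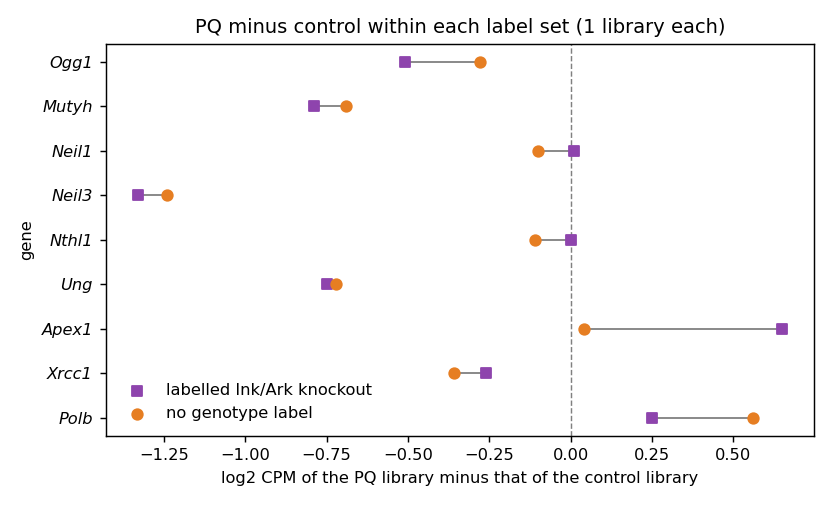
Difference of the PQ and the control library of the same label set for each of the 9 members, as log2 CPM on the horizontal axis; each point compares 1 library with 1 library, squares with the Ink/Ark knockout label and circles without a genotype label. Neil3, Mutyh, Ung, Ogg1 and Xrcc1 lie below 0 in both sets and Polb above 0 in both, though Ogg1 did not pass the test. Apex1 is at 0.65 with the genotype label and 0.04 without it. The share of all genes with the same sign in both sets was not computed.

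The sequences before the starts of the 4 members that fell in PQ are shown because these genes were called lower by edgeR in PQ against control. Whether they move jointly was not tested. They are the 250 bases before the start, from the RefSeq promoter table of build GRCm38.p6, which matched 8 of the 10 members with 9 promoters; Polb and Neil2 had no entry. Neil3 is at chr8:53639066-53639315 (minus strand), Mutyh at chr4:116807484-116807733 (plus strand, the first of 2 promoters), Ung at chr5:114130185-114130434 (plus strand) and Xrcc1 at chr7:24546449-24546698 (plus strand). Capitals mark every match, on either strand, to the 6 motifs searched.
Neil3: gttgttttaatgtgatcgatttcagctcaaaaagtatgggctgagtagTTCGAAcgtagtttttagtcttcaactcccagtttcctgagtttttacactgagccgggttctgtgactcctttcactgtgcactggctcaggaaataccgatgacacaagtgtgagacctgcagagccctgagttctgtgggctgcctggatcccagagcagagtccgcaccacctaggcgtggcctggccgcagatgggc
Mutyh: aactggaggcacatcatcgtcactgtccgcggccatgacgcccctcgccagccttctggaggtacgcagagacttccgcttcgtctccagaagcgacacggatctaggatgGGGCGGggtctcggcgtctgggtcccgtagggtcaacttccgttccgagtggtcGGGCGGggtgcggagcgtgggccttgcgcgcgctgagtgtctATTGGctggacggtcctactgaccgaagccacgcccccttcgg
Ung: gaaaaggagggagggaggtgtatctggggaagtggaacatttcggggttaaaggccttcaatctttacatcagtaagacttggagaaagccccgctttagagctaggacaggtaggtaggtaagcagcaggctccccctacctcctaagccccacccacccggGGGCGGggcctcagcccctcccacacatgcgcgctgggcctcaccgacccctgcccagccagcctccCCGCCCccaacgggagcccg
Xrcc1: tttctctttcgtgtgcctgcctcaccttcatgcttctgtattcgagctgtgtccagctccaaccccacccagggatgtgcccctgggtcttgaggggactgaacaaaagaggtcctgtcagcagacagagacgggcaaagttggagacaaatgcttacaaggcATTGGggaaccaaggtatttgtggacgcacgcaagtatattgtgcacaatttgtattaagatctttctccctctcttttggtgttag

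The motifs were the E2F site (TTTCCCGC, TTTCGCGC, TTTGGCGC or TTTGCCGC), the cell cycle homology region (TTTGAA or TTCGAA), the CCAAT box (CCAAT), the GC box (GGGCGG), the FOXO site (TGTTTAC) and the antioxidant response element (TGACNNNGC), and no letters of one lay within another in the 4 promoters. The Neil3 promoter held TTCGAA at positions -202 to -197 from the start, letters found in 1.34% of all 32851 promoters and also in that of Apex1; with TTTGAA the share was 17.1% of all promoters and 12.1% of the 11934 promoters of tested genes. Mutyh held 2 GC boxes and a CCAAT box, Ung held 2 GC boxes, and Xrcc1 held a CCAAT box; the GC box was found in 32.7% of all promoters and 58.7% of those of tested genes, and the CCAAT box in 33.8 and 35.8%. The E2F site, found in 1.86% of all promoters and 3.44% of those of tested genes, was in none of these 4 and was present among the members only in Nthl1, which did not pass the test. The FOXO site (3.17 and 2.07%) was in none of the 9 promoters of members, and the antioxidant response element (10.2 and 11.7%) was in that of Neil1 alone. The promoters of Mutyh and Ung had a GC content of 65.6 and 62.8%, those of Neil3 and Xrcc1 51.6 and 49.2%, and the median of all promoters was 52.4%. The CCAAT boxes of Mutyh and Xrcc1 and the GC box of Ung nearer to the start read as ATTGG and CCGCCC, on the opposite strand. The 4 sequences share no single motif of these 6. A match is a description of the letters and not a bound site.

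NAC was compared with control to see whether an antioxidant moves the same genes. Of the 9 members, 1 passed (edgeR, adjusted p under 0.05), beside 18.7% of all genes. It was higher, beside 9.01% of all genes higher, and 0 members were lower, beside 9.64% of all genes lower; at an unadjusted p under 0.05 the number lower was also 0, as it was by DESeq2 and by limma. The median over the 9 members was -0.10. The member that rose was Apex1, with a log2 fold change of 0.52 (SE 0.14, 95% interval 0.22 to 0.81, edgeR adjusted p 0.013) and both NAC libraries above both control libraries. This value rests on the low control library 1: it was 0.25 without that library and 0.84 without control library 2. The call was lost without control library 1, without NAC library 2 (0.46), in the libraries without a genotype label (0.25) and with the label set as a replicate block (0.40, edgeR adjusted p 0.0663), and the adjusted p over the 14 alternatives ran from 1.62e-05 to 0.215. NAC libraries with the genotype label were not used here, so a difference between label sets and an effect of NAC cannot be told apart for control library 1. The log2 fold changes of the other 8 ran from -0.19 for Neil3 (95% interval -0.47 to 0.09) to 0.24 for Ung (95% interval -0.16 to 0.65), and none passed. Without control library 1 the sign turned for Ung (-0.01) and for Polb (0.01, against -0.11 with all libraries).

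The 2 comparisons with control share the same control libraries, so their values are only set side by side. For PQ and NAC over control in turn, the log2 fold changes were -1.30 and -0.19 for Neil3, -0.77 and -0.13 for Mutyh, -0.76 and 0.24 for Ung, -0.31 and -0.10 for Xrcc1, and 0.40 and -0.11 for Polb. The direct comparison of PQ with NAC, which uses no control library for its fold change, tests these differences. In it 3 of the 9 members passed (edgeR, adjusted p under 0.05) beside 31.6% of all genes, 1 higher beside 16% of all genes and 2 lower beside 15.7%, so the share of members called was close to that of all genes.

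Against NAC, Neil3 was lower in PQ by a log2 fold change of -1.11 (SE 0.15, edgeR adjusted p 1.2e-05), and Ung by -1.00 (SE 0.21, edgeR adjusted p 0.0011). Both calls were kept in all 14 alternatives, with log2 fold changes from -1.21 to -1.01 for Neil3 and from -1.31 to -0.73 for Ung. Polb was higher by 0.51 (SE 0.14, edgeR adjusted p 0.0077), a call lost without PQ library 2 (0.47) and without NAC library 1 (0.46), and the adjusted p over its alternatives ran from 0.0026 to 0.0753. Mutyh, at -0.64 (SE 0.24), missed the threshold (edgeR adjusted p 0.0512) and passed in 6 of the 14 alternatives, including the fits without control library 1 or 2. Ogg1 (-0.24), Xrcc1 (-0.21) and Apex1 (-0.20) did not pass. In FPKM the PQ libraries of these 3 genes lay below both NAC libraries. The share of all genes with such an order was not computed, so it adds nothing to the test.

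**Figure D3:**
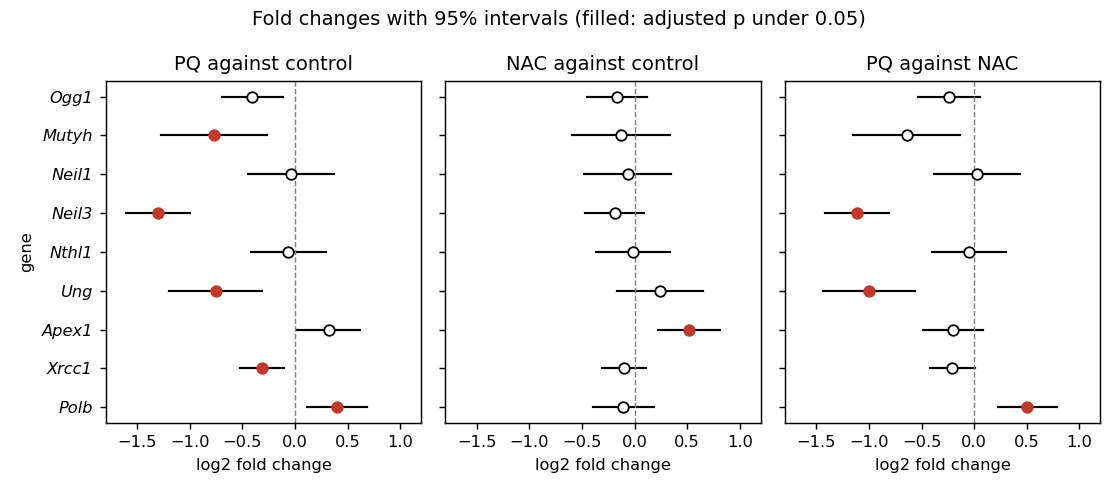
Log2 fold change (horizontal axis) of the 9 measured members in the 3 comparisons, 2 libraries a group; bars are 95% intervals from edgeR and filled points have an adjusted p under 0.05. Neil3 and Ung are lower and Polb higher in PQ against both control and NAC, and in NAC against control Apex1 alone passes.

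The order of the levels per length was compared within each group. In control the mean FPKM was 35.5 ± 10.4 for Apex1, 32.1 ± 2.15 for Xrcc1, 18.3 ± 1.95 for Polb, 16.2 ± 1.56 for Ogg1 and 14.2 ± 1.47 for Neil3 (SD, n = 2). Below them stood Nthl1 (10.7 ± 1.06), Neil1 (9.57 ± 0.926), Ung (7.0 ± 1.91) and Mutyh (3.72 ± 0.0495). The neighbours Apex1 and Xrcc1, Polb and Ogg1, Ogg1 and Neil3, and Nthl1 and Neil1 overlapped in their control libraries, so their order is not set by these data. In PQ, Neil3 (5.85 ± 0.488) moved from the fifth to the seventh place, below Nthl1 and Neil1, and its libraries lay apart from both neighbours. In NAC the order was the same as in control, with overlap only between Nthl1 and Neil1 and between Neil1 and Ung.

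The genes whose log2 CPM over the 6 libraries was most like that of Neil3 were Prpf31, a splicing factor (Pearson's r = 0.9968), Rflnb (0.9958) and Xkr5 (0.994). Rflnb had 140.4 and 123.1 normalized counts in control, 65.4 and 64.1 in PQ and 117.8 in each NAC library. Prpf31 had 740.9 and 721.2 in control and 656.6 and 642.3 in PQ, a much smaller difference in the same order. Such r values describe a pattern in which the PQ libraries stand apart from the other 4, and 210 of the 11716 genes compared had an r over 0.95.

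The rest of the pathway was followed in 38 further genes that passed the filter. In PQ against control, 19 were lower and 1 was higher, beside 9.45% and 9.76% of all genes. The median log2 fold change was -0.35 against 0 over all genes tested. DESeq2 called 18 lower and 0 higher, limma 15 and 0, and the libraries without a genotype label alone 12 and 0. In long-patch synthesis and ligation 13 of 16 were lower and 0 higher, with a median of -0.55; its difference from the other lists was not tested. By an unadjusted p under 0.05 0 of its genes were higher, and DESeq2 and limma called 13 and 12 lower and 0 higher. The short-patch polymerase and ligase list, Poll and Lig3, had 0 of 2 called by edgeR, at an unadjusted p under 0.05, by DESeq2 or by limma. Polb and Xrcc1 are counted among the members instead, where edgeR called Polb higher (0.40) and Xrcc1 lower (-0.31). The list is thus not the whole of short-patch repair.

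Lig1, the ligase of replication and of long-patch repair, was at 37.15 and 41.43 FPKM in control, 21.67 and 22.44 in PQ and 46.57 and 46.13 in NAC. The value for PQ over control, as a log2 fold change, was -0.86 (SE 0.10, edgeR adjusted p 9.2e-06), while Lig3, the short-patch ligase bound by Xrcc1, had -0.07 (SE 0.10, edgeR adjusted p 0.671). Poll, a polymerase related to Polb, had -0.33 (SE 0.19, edgeR adjusted p 0.250), as large as the value of Xrcc1, and did not pass. Pcna, the sliding clamp, was at 220.22 and 241.87 FPKM in control, 154.99 and 163.0 in PQ and 289.27 and 267.16 in NAC. Pold1 and Pole, the catalytic subunits of the replicative polymerases delta and epsilon, had log2 fold changes of -1.00 (SE 0.11) and -0.99 (SE 0.11), with adjusted p values of 9.0e-06 and 9.2e-06 by edgeR. For Lig1 and Pcna the 3 groups did not overlap, with PQ lowest and NAC highest, although neither gene passed for NAC over control.

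Poly(ADP-ribose) signalling marks broken strands and recruits Xrcc1. In this list 3 of 6 genes were lower in PQ than in control and 1 was higher, beside 9.45% and 9.76% of all genes. DESeq2 called 2 lower and limma 1, and both called 0 higher. With the label set as a replicate block 2 were lower and 1 higher. The libraries without a genotype label had 1 lower and 0 higher. Parp1, the main sensor of strand breaks, was at 31.08 and 39.61 FPKM in control, 27.51 and 26.85 in PQ and 42.31 and 41.66 in NAC (log2 fold change of PQ over control -0.40, SE 0.11, edgeR adjusted p 0.013). Parp2, a second sensor, and Hpf1, the cofactor that directs both to serine, had -0.53 and -0.37 and passed. Parp3 went the other way, from 14.16 and 14.35 FPKM in control to 20.9 and 16.87 in PQ (log2 fold change 0.38, SE 0.12, edgeR adjusted p 0.03).

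Of 6 genes for strand end processing, 2 were lower in PQ than in control, beside 9.45% of all genes. They were Tdp1 (log2 fold change -0.66, SE 0.13) and Tdp2 (-0.40, SE 0.12), which release topoisomerases trapped on DNA. By limma 1 of them was called. No gene of this list was higher by edgeR, at an unadjusted p under 0.05, by DESeq2 or by limma. In nucleotide pool sanitation 1 of 4 was lower, beside the same 9.45% of all genes. It was Dut (-0.64, SE 0.12), which keeps dUTP and hence uracil out of DNA. DESeq2, limma and the replicate block also had 1 of this list lower, and the libraries without a genotype label 0. Nudt1, which clears oxidised dGTP, had -0.12 (SE 0.18) and did not pass. Of 4 other glycosylases (Smug1, Tdg, Mbd4 and Mpg) 0 passed in PQ against control by edgeR, DESeq2 or limma, and 1 was lower at an unadjusted p under 0.05, Mbd4. In PQ against NAC Mbd4 was lower (log2 fold change -0.61, SE 0.16, edgeR adjusted p 0.0067), also by DESeq2, limma and with the replicate block.

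In NAC against control 1 of the 38 further genes was higher and 1 was lower, beside 9.01% and 9.64% of all genes, with a median of 0.03. The gene that was higher was Aplf, an end-processing factor that DESeq2 did not call (log2 fold change 0.42, SE 0.14, edgeR adjusted p 0.041). The gene that was lower was Pold2, a subunit of polymerase delta (log2 fold change -0.30, SE 0.10, edgeR adjusted p 0.041), which neither DESeq2 nor limma called. Both calls were lost with the label set as a replicate block. In PQ against NAC 3 were higher and 19 lower, beside 16% and 15.7% of all genes, with a median of -0.34. DESeq2 called 1 higher and 17 lower, and the fit with the label set as a replicate block 1 and 18. The libraries without a genotype label had 0 higher and 18 lower. Of the 16 long-patch genes 14 were lower (12 by DESeq2, 13 in the libraries without a genotype label). Pold4 alone, a small subunit of polymerase delta, was higher (log2 fold change 0.37, SE 0.12, edgeR adjusted p 0.021). By DESeq2, and in the libraries without a genotype label, 0 long-patch genes were higher.

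**Figure D4:**
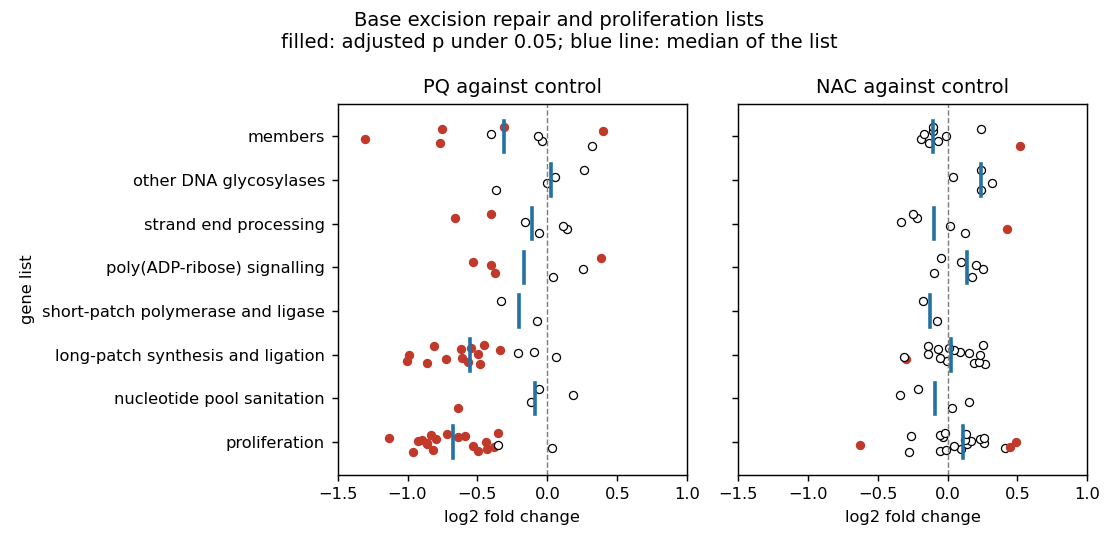
Log2 fold change (horizontal axis) of each tested gene of the members, the 6 other base excision repair lists and the proliferation list, in PQ and in NAC against control; filled points have an adjusted p under 0.05 by edgeR and blue lines are list medians. In PQ the long-patch and proliferation lists lie mostly below 0, with medians of -0.55 and -0.68, and in NAC their medians are 0.03 and 0.11.

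Proliferation genes differed between PQ and control as well. Of 20, 18 were lower in PQ than in control and 0 higher by edgeR, beside 9.45% and 9.76% of all genes. At an unadjusted p under 0.05, by DESeq2 and by limma 0 were higher as well. The median log2 fold change was -0.68. DESeq2 called 16 lower, limma 15 and the libraries without a genotype label alone 14. Their summed level was 1203.0 and 1268.5 FPKM in control libraries 1 and 2, 751.2 and 789.0 in PQ and 1375.1 and 1305.8 in NAC, with Top2a the most abundant. Mki67, a marker of cycling cells, was at 100.78 and 104.3 FPKM in control, 44.59 and 50.52 in PQ and 134.75 and 118.63 in NAC (log2 fold change of PQ over control -1.13, SE 0.10, edgeR adjusted p 5.7e-07). Mcm2, Mcm3 and Mcm5, subunits of the replicative helicase, had -0.86, -0.86 and -0.92. In NAC against control 2 of the 20 were higher, Mcm4 (0.49) and Ccne2 (0.45), beside 9.01% of all genes. Only 1 was lower, E2f1 (-0.63), beside 9.64% of all genes, so both counts were near the shares over all genes. With the label set as a replicate block 1 was higher and 1 lower, and in the libraries without a genotype label 0 and 1. The part of the share of cycling cells in the levels of Neil3, Ung and the long-patch genes was not tested.

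Astrocyte markers also differed between groups at low levels. The 4 markers summed to 4.4 and 4.6 FPKM in control, 6.8 and 6.0 in PQ and 9.6 and 9.5 in NAC, with Gfap the most abundant. In PQ against control Aldh1l1 was higher (log2 fold change 1.17, SE 0.26), while Gfap (-0.05), Aqp4 (-0.15) and S100b (0.65) did not pass. In NAC against control Gfap (1.23, SE 0.21) and Aqp4 (1.76, SE 0.22) were higher, while Aldh1l1 (-0.49) and S100b (1.17) did not pass. With the label set as a replicate block, and in the libraries without a genotype label, 3 of the 4 were higher in NAC against control, and in these libraries alone 0 passed in PQ against control. Their part in the members' values was not tested.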

How the data were processed

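RNA-seq of 6 NSPC libraries was analysed from 1 gene table per library. For every gene the authors deposited 1 expected count, which need not be whole. Levels in FPKM, corrected for length and for the size of the library, were also computed by the authors. Per the labels, processing notes for the libraries labelled Ink/Ark knockout name mm9, bcl2fastq 2.17, cutadapt, TopHat2 2.0.11 and Cufflinks 2.1.1, and those for the other 4 name mm10, HISAT2 2.0.4, Bowtie2 2.2.5 and RSEM. All 6 tables nevertheless have the same columns, and transcript lists were identical for 14479 of 14479 genes listed in both control libraries. The study's methods name a stranded library kit, but whether strand was used in counting is not given in the sources used here, so overlapping genes are uncertain.

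Genes absent from a library's table were taken as 0 there; a gene absent from all 6 was not analysed. Symbols came from the NCBI gene table, which named 99.7% of 17254 genes. Gene positions are those of GENCODE vM1 on mm9, and promoters those of RefSeq on GRCm38.p6; no coordinates were converted. Expected counts were rounded and tested with edgeR 4.0.16 in R 4.3.3 (TMM, glmQLFit and glmQLFTest, all 6 libraries in 1 fit, no covariates) on 11717 genes with a mean of at least 1 FPKM, called at a Benjamini-Hochberg adjusted p under 0.05. Dividing the absolute log2 fold change by the square root of F gave the standard error (SE). The log2 CPM used a prior count of 2. With 9680436 to 10698241 expected counts per library, members had 37 counts or more, and 3 counts or fewer were treated as near 0. The steps were tested on simulated data. Groups came from the treatment labels.

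The members and lists were chosen with earlier results of these data known. The genes named are the 10 members, up to 4 genes of each list with the smallest p over the 3 comparisons, the genes that overlap a member, the marker genes used to check the cells, the 3 genes most like the member with the smallest p, the most abundant gene of a list, and Cdkn2a; Pold2, Pold4, Mcm4, Ccne2 and E2f1 were named after their values were seen. An item of the lists is not reported here. Alternatives were DESeq2's size factors, DESeq2 1.42.0, no filter, the label set as a replicate block, only the 4 libraries compared, limma 3.58.1 on log2(FPKM + 1) and log2(FPKM + 0.1), only the libraries without a genotype label, and leaving out each library.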

Additional observations from a re-analysis of the deposited data

How the results depend on the processing

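Over the 14 alternatives and 3 comparisons, 312 of the members' log2 fold changes kept their direction and side of the threshold, 33 were no longer past it and 10 came past it. Neil3 in PQ against control and against NAC, and Ung in PQ against NAC, kept their calls in all 14. The 5 members called in PQ against control were 7 with no filter on low values, 5 with DESeq2's size factors, 4 in the 4 libraries compared, 2 by DESeq2, 3 with the label set as a replicate block, 3 and 3 by limma at both pseudocounts, 2 in the libraries without a genotype label, and 1 to 4 when a library was left out. The 1 called in NAC against control was 0 with the replicate block and 0 in the libraries without a genotype label, and 0 to 1 when a library was left out; in PQ against NAC the 3 called became 4 with no filter and 4 in the 4 libraries compared, and 2 to 4 when a library was left out. Over all genes, 2250 in PQ against control became 2617 with no filter, 993 in the libraries without a genotype label and 866 to 2206 with a library left out, 2186 in NAC against control became 2633 with no filter and 1286 to 2126 with a library left out, and 3708 in PQ against NAC became 4218 with no filter, 4210 in the 4 libraries compared and 2343 to 4207 with a library left out; the reasons were not tested, and a group left with 1 library is assumed to vary like the others. The labels carry no replicate numbers, and control and PQ libraries sharing a label set had deviations from their group means that correlated at -0.08 across genes, so the label set was a block in an alternative only.

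Sign changes concerned 23 values, none of them past the threshold, and their cause was not tested. In PQ against control, Neil1 (-0.04) was 0.07 without control library 1, 0.11 without PQ library 2 and -0.21 without PQ library 1, and Nthl1 (-0.06) was 0.03 without control library 2 and -0.15 without control library 1. In NAC against control, Mutyh (-0.13) was 0.01 without NAC library 1 and -0.28 without NAC library 2. Neil1 (-0.07) was 0.07 with the replicate block, 0.04 in the libraries without a genotype label, 0.04 without control library 1, 0.17 without NAC library 1 and -0.33 without NAC library 2. Nthl1 (-0.01) was 0.03 and 0.04 by limma, 0.08 without control library 2, 0.05 without NAC library 1 and -0.10 without control library 1. Ung (0.24) was -0.01 with the block, without the genotype-labelled libraries and without control library 1, and Polb (-0.11) was 0.01 in the last 2 of these fits; without control library 2 they were 0.55 and -0.22. In PQ against NAC, Neil1 (0.03) was -0.11 with the block, -0.14 in the libraries without a genotype label, -0.14 without PQ library 1, -0.20 without NAC library 1 and 0.30 without NAC library 2, and Nthl1 (-0.05) was 0.02 with the block, 0.02 without NAC library 2 and -0.12 without NAC library 1. Mutyh, with 37 to 64 counts a library, had the widest interval of the members in each comparison.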
